A study of Homo sapiens with 10 samples.

Results

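HEB is the E protein made from TCF12, and its effect on RNA was read here by setting 1 library of Kasumi-1 cells that overexpress HEB beside 1 library of the same line carrying the empty MigR1 vector. Of 50868 genes in the deposited table, the 13695 with at least 30 reads in these 2 libraries together were described, and the other genes were left out as too thinly counted. Kasumi-1 is an established human myeloid leukemia line with the 8;21 translocation, which joins RUNX1 (AML1) to RUNX1T1 (ETO). Both groups were cells of passages 4-5 that had been infected with retrovirus, sorted for GFP and harvested 4 days after infection, so the control cells also went through infection, the vector and the sort. The study asked whether E proteins differ in this leukemia. Libraries from cells overexpressing E2A (from TCF3) or E2-2 (from TCF4) were made in the same way, 1 each, and are given for reference.

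E proteins are basic helix-loop-helix transcription factors that bind DNA as dimers at short sites called E-boxes. ID proteins lack the basic region, pair with E proteins and keep them from DNA, and their genes are themselves E protein targets in several blood cell types. E proteins are best known for driving the lymphoid programme, including recombination of antigen receptor genes. In leukemia with the 8;21 translocation they are part of the complex held by the AML1-ETO fusion.

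Each group had 1 library, so no difference below has a replicate check and no test between conditions was possible. Folds are HEB over vector after TMM scaling, and the ranges in parentheses are 95% exact intervals that cover counting error only. A call needs a difference of 2-fold or more in either direction and an interval that leaves out 1, among genes that reach the minimum of 30 reads. The words higher and lower describe the 2 libraries. In a bulk library, fewer cells with a transcript and less transcript per cell cannot be told apart. A gene with 0 reads was set to 3 reads for its fold. The fold is then a value at that floor, and its interval can start below it. The vector library held 15728974 counted reads and the HEB library 16791922, against 17673090 for E2A and 14816708 for E2-2, so that 3 reads correspond to 0.192 CPM (counts per 1000000 counted reads, on scaled library sizes) in vector and 0.181 in HEB. There were 57 measured genes with exactly 30 reads in the 2 libraries, just inside the minimum, and 88 genes with 29, just outside it.

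Both libraries carried the genes of the line. RUNX1T1, the ETO partner, had 3235 reads in vector and 3068 in HEB. KIT, a progenitor receptor, had 10171 and 12285, and MPO, the myeloperoxidase of granulocyte precursors, had 231819 and 298092. Several markers that define other lineages were at or near 0 in both: the B cell gene MS4A1 had no read in either library, the monocyte gene CD14 had 3 and 2, and HBB had none. Others were present in both, such as the B cell receptor chain gene CD79B with 160 reads in vector and 174 in HEB and the epithelial gene EPCAM with 871 and 675. Of 17 epithelial, fibroblast and packaging cell genes, 5 were measured and none was called, with a summed level of 67.1 CPM in vector and 51.8 in HEB. TCF12 itself had 2568 reads in vector, 13842 in HEB, 2971 in E2A and 2206 in E2-2, and transduced and resident transcripts are counted together. The level of HEB RNA in the HEB library was thus 4.97-fold (4.78 to 5.18) that in E2A and 5.75-fold (5.50 to 6.02) that in E2-2.

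The HEB library differed from vector mainly by genes at a higher level. Of the 13695 measured genes, 349 (2.55%) were called higher and 169 (1.23%) lower, while 12186 (89.0%) lay within 1.5-fold. The higher genes also stood farther from 1: their median fold was 3.00, with 176 genes 3-fold or more above vector and 54 of them 10-fold or more. The lower genes had a median of 2.27-fold, with 18 genes 3-fold or more below vector and 6 of them 4-fold or more. Most of the called genes had few reads. The median was 112 reads in both libraries together for the higher and 69 for the lower genes, against 826 over all measured genes. In the higher set 13 genes had no read in vector and 31 had 3 or fewer, and no lower gene was at 0 in HEB. Protein-coding genes made up 272 of the higher and 89 of the lower set. With the interval itself required to lie beyond 2-fold, 180 genes were higher and 12 lower. The share called moved with depth. Of 2478 genes with 30 to 99 reads, 6.70% were higher and 4.60% lower, whereas of 2678 genes with at least 3000 reads 0.336% were higher and 0.112% lower.

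**Figure D1:**
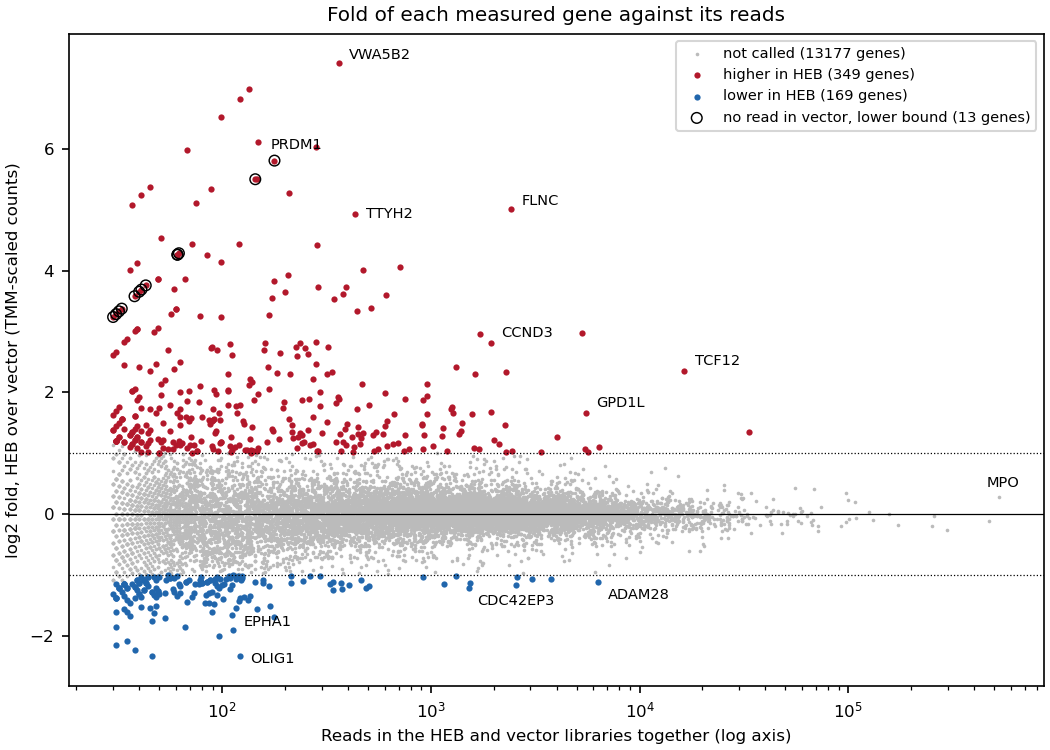
Each point is 1 of 13695 genes, with its reads in the HEB and vector libraries together on a log axis and its log2 fold on the vertical axis; dotted lines mark 2-fold. The 349 genes called higher (red) reach far above the 2-fold line, up to VWA5B2, while the 169 called lower (blue) stay close to it, and called genes of both kinds crowd at few reads.

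Most of the genes that stood highest in HEB, ranked by the lower end of the fold interval, had few reads in vector. A large fold is easier to reach from a low level in vector. VWA5B2, which encodes a protein with a von Willebrand factor type A domain, had 2 reads in vector, 359 in HEB, 656 in E2A and 2563 in E2-2, a fold of 169 (46.5 to 1402). MYBPH, a myosin binding protein of muscle, had 0 reads in vector, 178 in HEB, 106 in E2A and 384 in E2-2. Its fold at the floor of 3 reads was 55.9, with an interval from 45.0 upward. ADRA2B, an alpha-2 adrenergic receptor, had 0 reads in vector, 144 in HEB, 73 in E2A and 306 in E2-2. Its fold at the same floor was 45.2, with an interval from 36.3 upward. All 3 were thus nearly absent from the control and present in each library with an added E protein. FLNC, the muscle form of the actin crosslinker filamin, was the most deeply counted of the 15 highest genes, with 69 reads in vector, 2356 in HEB, 1047 in E2A and 6110 in E2-2. Its fold was 32.2 (25.3 to 41.5), and the level in HEB was 2.40-fold (2.23 to 2.59) that in E2A and 2.83-fold (2.70 to 2.97) below that in E2-2.

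Regulators and blood cell genes were also among the 15 highest. PRDM1 encodes BLIMP1, the repressor that drives plasma cell differentiation, and had 2 reads in vector, 146 in HEB, 264 in E2A and 563 in E2-2, a fold of 68.8 (18.7 to 574). CPA3, carboxypeptidase A3 of mast cells, had 1 read in vector, 98 in HEB, 758 in E2A and 486 in E2-2, a fold of 92.4 (16.2 to 3685). HEB stood well below the other E proteins for this gene, 7.24-fold (5.86 to 9.03) below E2A and 5.41-fold (4.35 to 6.79) below E2-2. CREB3L1, a membrane-bound transcription factor of the secretory pathway, had 5 reads in vector, 205 in HEB, 365 in E2A and 742 in E2-2, a fold of 38.6 (16.3 to 120). TTYH2, a tweety family membrane protein, had 13, 421, 882 and 1053 reads in the same order, a fold of 30.5 (17.7 to 57.8). The other named genes of the 15 were NXPH3 (4 reads in vector and 276 in HEB), a neurexin ligand, PLEKHA7 (1 and 134), a protein of epithelial adherens junctions, KRT17 (1 and 120), a keratin, and UMODL1 (3 and 144). For KRT17 a near-identical pseudogene makes the count uncertain. IGKV3OR2-268 (0 and 62), ANTXRLP1 (0 and 61) and TRBV6-6 (0 and 61) are an orphan immunoglobulin segment, a pseudogene and a T cell receptor segment, and all 3 belong to families of near-identical copies. In E2-2 the CPM of all 15 genes was above that in HEB, and in E2A that of 10.

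The lower genes differed by smaller steps and were mostly still expressed. OLIG1, a basic helix-loop-helix factor of the oligodendrocyte lineage, had 100 reads in vector, 21 in HEB, 44 in E2A and 29 in E2-2. It was 5.05-fold (3.13 to 8.52) lower in HEB than in vector. EPHA1, an ephrin receptor, had 88 reads in vector, 25 in HEB, 37 in E2A and 13 in E2-2, 3.73-fold (2.37 to 6.08) lower in HEB. ANXA8, an annexin with near-identical copies, had 76, 20, 48 and 41 reads in the same order, 4.03-fold (2.44 to 6.97) lower in HEB. These 3 genes had at most 100 reads in any library. Well-counted genes were closer to 2-fold lower. ADAM28, a membrane metalloprotease of lymphocytes, had 4242 reads in vector, 2068 in HEB, 1877 in E2A and 1242 in E2-2, 2.18-fold (2.06 to 2.30) lower in HEB. CDC42EP3, an effector of the small GTPase CDC42, went from 1045 reads in vector to 475 in HEB, 2.33-fold (2.09 to 2.61) lower. ADAMTS7, a secreted metalloprotease, went from 1738 to 824, 2.24-fold (2.06 to 2.43) lower. SCPEP1, a serine carboxypeptidase, stood at 2021 and 1019, the retinol dehydrogenase gene DHRS9 at 781 and 375, and EVPL, which encodes the desmosomal protein envoplakin, at 2484 and 1263. RASSF4, a RAS association domain protein, had 124 reads in vector, 46 in HEB and 54 in E2A, while E2-2 had 158. KIR3DX1 (38 and 8) and the noncoding RNA genes LOXL1-AS1 (83 and 28), LINC01094 (51 and 15) and LINC00683 (31 and 7) rest on few reads, and reads of an antisense gene cannot be told from its partner's without strand. Of the 15 lowest genes, 13 had a CPM in HEB below that in E2A, and 6 below that in E2-2.

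**Figure D2:**
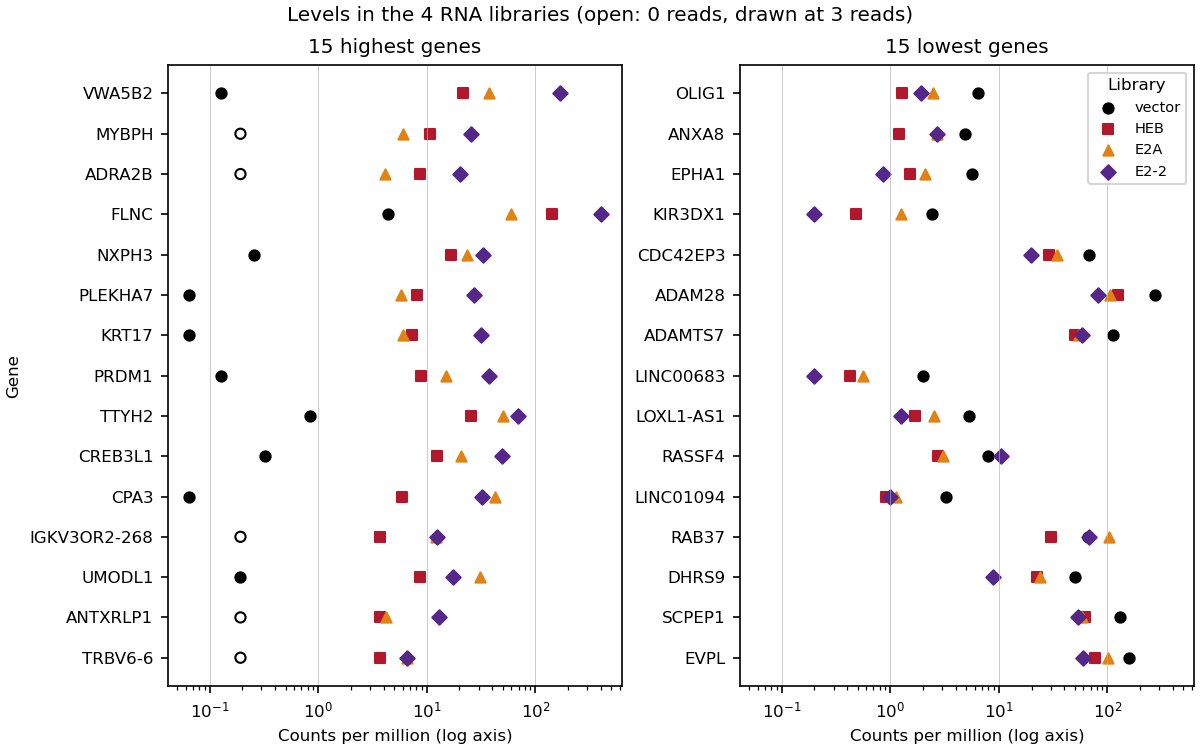
Levels of the 15 highest and 15 lowest genes in the vector, HEB, E2A and E2-2 libraries, in CPM on a log axis; an open circle marks 0 reads and is drawn at the level of 3 reads. In the left panel vector stands far to the left of the other 3 libraries for each gene, and E2-2 stands to the right of HEB in all 15, while on the right the steps are smaller and RAB37 is low in HEB with E2A and E2-2 at or above vector.

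Promoter letters were read for the 15 highest and 15 lowest genes, since E proteins bind the E-box CANNTG. The search was for the form CAGCTG, which reads the same on both strands, and for the form CAGGTG, which reads as CACCTG on the opposite strand, in the 250 bases before the first start that RefSeq lists. Of 27305 RefSeq promoters, 28.5% held at least 1 of these forms. The promoter table covered 8 of the 15 highest genes, of which 4 held a form, and 9 of the 15 lowest, of which 3 did. Over all called genes the table matched 63.3% of the higher and 50.3% of the lower set, below the 80% needed to compare shares, so that comparison is void. The 4 stretches below are shown because they are the genes named above with a form outside the gene's span in the table. Each is GRCh38.p14 sequence from RefSeq, 5′ to 3′ on the gene's strand, with the E-box in capitals, and a match in letters is not evidence of binding. The stretch for MYBPH lies on chr1:203175861-203175926 (minus strand), that for PRDM1 on chr6:106086216-106086281 (plus), that for CPA3 on chr3:148865208-148865255 (plus) and that for EPHA1, a lower gene, on chr7:143408901-143408966 (minus).
MYBPH: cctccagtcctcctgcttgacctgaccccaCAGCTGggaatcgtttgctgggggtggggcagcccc
PRDM1: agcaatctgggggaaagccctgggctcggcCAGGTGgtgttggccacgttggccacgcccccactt
CPA3: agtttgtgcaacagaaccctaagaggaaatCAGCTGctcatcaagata
EPHA1: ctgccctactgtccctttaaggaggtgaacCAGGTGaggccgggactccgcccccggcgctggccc

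The ID genes differed in size. ID3 had 41 reads in vector and 241 in HEB, against 709 in E2A and 1360 in E2-2. ID2 had 256, 456, 2386 and 2506 reads in the same order and was not called in HEB. ID1 had 459 and 382 in vector and HEB. Both ID3, which was called, and ID2 had more reads in E2A and E2-2 than in HEB. The resident E protein genes moved little: TCF3 had 3934 reads in vector and 4201 in HEB, and TCF4 had 4 and 1. Among 12 measured partners of the AML1-ETO complex none was called, and their median log2 fold was -0.10 against 0.01 over all measured genes. RUNX1 had 9659 reads in vector and 9247 in HEB, the E protein partner gene TAL1 1047 and 1061, and the adaptor gene LMO2 1728 and 1915. Of 24 genes reported as AML1-ETO targets, 1 was called, which is close to the share over all measured genes (2.55% higher and 1.23% lower): TRH, the thyrotropin releasing hormone gene, with 1792 reads in vector, 3840 in HEB, 9942 in E2A and 16149 in E2-2, and it lost its call when the scaling used HEB and vector alone.

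Ligand genes, a Fringe gene and a single target gene of the Notch pathway were among the higher genes. Notch receptors on one cell are bound by Delta and Jagged ligands on another, Fringe enzymes modify the receptor, and HES and HEY factors are the targets. Of 18 measured members, 4 (22.2%) were called higher and none lower, against 2.55% and 1.23% of all measured genes. The median log2 fold of the list was 0.47. In the KEGG term Notch signaling pathway, 3 of 38 measured genes (7.89%) were higher and none lower, with a median log2 fold of 0.09. The ligand gene DLL4 had 2 reads in vector, 73 in HEB, 40 in E2A and 173 in E2-2, a fold of 34.4 (9.19 to 289). The ligand gene JAG2 had 24, 115, 117 and 284 reads in the same order, a fold of 4.52 (2.89 to 7.34), and the Fringe gene LFNG had 11, 77, 56 and 239, a fold of 6.60 (3.49 to 13.8). HEYL, a target, had 195 reads in vector, 460 in HEB, 752 in E2A and 599 in E2-2, a fold of 2.22 (1.88 to 2.64). The ligand gene with the most reads, DLL3, had 823 in vector and 1683 in HEB, a fold of 1.93, and was not called. The receptor genes were not called either: NOTCH1 had 1024 reads in vector and 1213 in HEB, NOTCH2 148 and 234, and NOTCH3 58 and 42. RBPJ, the DNA-binding partner of the receptors, had 4479 and 4054.

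Genes of Wnt signalling were called in both directions, and a Hedgehog receptor gene was higher. In the KEGG term Hedgehog signaling pathway, as the table annotates it, 4 of 25 measured genes were higher and 2 lower. Over all measured genes the shares were 2.55% and 1.23%. The Wnt ligand genes WNT9A (5 reads in vector and 55 in HEB), WNT4 (4 and 34) and WNT10B (9 and 22) were higher, while WNT11 (45 and 22) was lower. The Hedgehog receptor gene PTCH1 had 351 reads in vector, 1051 in HEB, 915 in E2A and 1462 in E2-2, a fold of 2.82 (2.50 to 3.19). Of these 5 genes, PTCH1 alone had more than 100 reads in a library. The Wnt signaling pathway term had 8 of 95 (8.42%) higher and 1 (1.05%) lower, with a median log2 fold of 0.01. In the list of transforming growth factor and BMP genes, CHRD, a secreted BMP antagonist, had 2 reads in vector, 37 in HEB, 164 in E2A and 1708 in E2-2, a fold of 17.4 (4.50 to 149). The antagonist NOG was lower, with 221 reads in vector and 106 in HEB, and the third called member of 24 was ID3.

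Myeloid and dendritic genes were called higher in small numbers, while the main granule genes were not called. Over all measured genes, 2.55% were called higher and 1.23% lower. Of 18 granulocytic genes, 2 were called higher and none lower. S100A8, a calprotectin subunit, had 0 reads in vector, 38 in HEB, 39 in E2A and 145 in E2-2, a fold of 11.9 at the floor of 3 reads. Its partner S100A9 had 922 in vector and 954 in HEB. NCF1, a subunit of the phagocyte oxidase with near-identical pseudogenes, had 169, 792, 1206 and 2374 reads, a fold of 4.42 (3.74 to 5.25). The granule protease genes ELANE (6478 and 6286 reads in vector and HEB) and PRTN3 (28389 and 40079) were not called. CSF1R, the macrophage colony-stimulating factor receptor, was the called member of 6 monocytic genes, with 23 reads in vector, 113 in HEB, 191 in E2A and 646 in E2-2, a fold of 4.63 (2.94 to 7.60). Of 10 dendritic genes, 4 were higher: PLAC8 had 49 reads in vector and 191 in HEB, the receptor gene FLT3 65 and 207, THBD 82 and 220, and the interferon regulatory factor gene IRF7 117 and 300. The defining dendritic genes CLEC4C and LILRA4 had no read in either library, and IRF8 had 5 and 13. The surface receptor CD33 was higher, with 441 reads in vector, 1490 in HEB, 1515 in E2A and 1751 in E2-2, a fold of 3.18 (2.86 to 3.55). CD34, the progenitor marker, had 3942 reads in vector, 2150 in HEB, 2638 in E2A and 2510 in E2-2, a ratio of 0.514 (0.488 to 0.542) that fell just short of the 2-fold rule.

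Of 6 measured mast cell and basophil genes, 3 were higher, against 2.55% of all measured genes, and the median member had 112 reads. The 3 were CPA3 as above, FCER1G, the shared signalling chain of Fc receptors, with 20 reads in vector and 86 in HEB, and the prostaglandin D2 receptor gene PTGDR2 with 27 and 91. The tryptase gene TPSAB1 had 9 and 4 reads, FCER1A and CMA1 had none in either library, and the summed level of the 17 listed genes was 754 CPM in vector and 845 in HEB. In the erythroid and megakaryocytic list, EPOR, the erythropoietin receptor gene, was higher with 116 reads in vector, 330 in HEB, 536 in E2A and 845 in E2-2, a fold of 2.68 (2.16 to 3.34).

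Lymphoid genes, the best known E protein programme, were called in few cases and on few reads. RAG1, a subunit of the recombinase of antigen receptor genes, had 12 reads in vector, 29 in HEB, 33 in E2A and 104 in E2-2, a fold of 2.28 (1.13 to 4.90), while RAG2 had 1 and 0. IGLL1, the surrogate light chain gene, had 601 reads in vector, 1199 in HEB, 4569 in E2A and 2558 in E2-2, a fold of 1.88 (1.70 to 2.08), below the 2-fold rule. CD22 was lower, with 28 and 12 reads in vector and HEB, and of 5 measured T and NK genes CD8A (37 and 16) and CD3D (34 and 15) were lower. These lower calls each rest on under 40 reads in a library. In the KEGG term Hematopoietic cell lineage, 6 of 37 measured genes (16.2%) were higher and 3 (8.11%) lower, against 2.55% and 1.23% of all measured genes. This was the largest share of higher genes among 224 KEGG terms with at least 20 measured genes. The 6 were CSF1R, CD33, FLT3, EPOR, IL1B and KITLG, and the 3 lower were CD8A, CD3D and CD22. IL1B, an inflammatory cytokine, had 156 reads in vector, 449 in HEB, 679 in E2A and 813 in E2-2, a fold of 2.71 (2.26 to 3.28).

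Receptors, adhesion molecules and matrix proteins were frequent among the higher genes. In the GO term integral component of plasma membrane, 45 of 610 measured genes (7.38%) were higher and 8 (1.31%) lower, against 2.55% and 1.23% of all measured genes. In receptor activity 37 of 492 (7.52%) were higher and 13 (2.64%) lower, so both shares were above those of all genes. In proteinaceous extracellular matrix 13 of 116 (11.2%) were higher and 2 lower. Nucleoplasm had 26 of 2397 (1.08%) higher and 4 lower, mitochondrion 11 of 1357 (0.811%) and 5, nucleolus 4 of 737 (0.543%) and 1, and ribosome none of 211 in either direction. Terms overlap and share genes, and their read depth differs: the median gene had 537 reads in the membrane term and 2048 in nucleoplasm. In the matrix term it had 295.5 reads, and that term was not divided by depth. Within genes under 300 reads, a division made after these counts were seen, 13.1% of the membrane term, 7.83% of nucleoplasm and 5.75% of all genes were higher. With at least 300 reads the shares were 3.55%, 0.369% and 1.01%. By the share of higher genes, the membrane term thus stood above all genes in both depth classes, and nucleoplasm below all genes in the deeper class only. The share of lower genes under 300 reads was 6.07% in receptor activity and 3.38% over all genes. With at least 300 reads it was 0% and 0.205%.

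**Figure D3:**
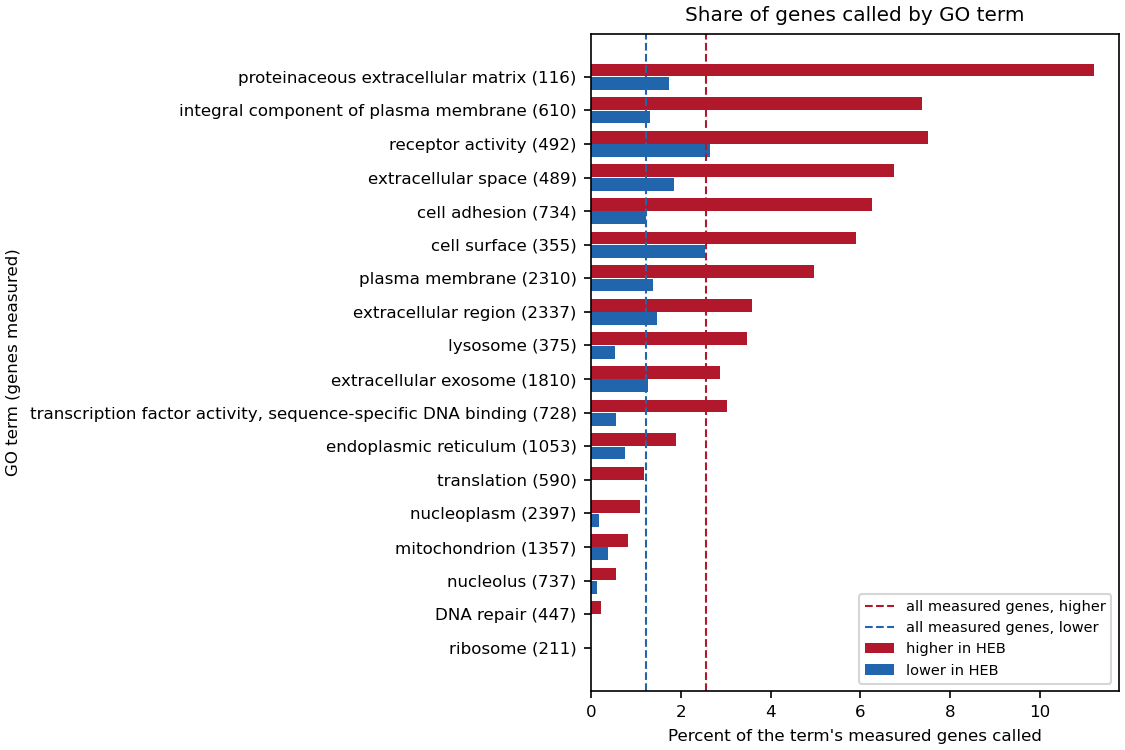
Bars give the percent of measured genes called higher (red) or lower (blue) in HEB for 18 GO terms, and dashed lines the 2.55% and 1.23% of all measured genes. Surface, matrix and adhesion terms lie above the red line, led by proteinaceous extracellular matrix at 11.2%, and nuclear, mitochondrial and ribosomal terms lie below it.

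Receptors for neurotransmitters, nucleotides and peptides were among the higher membrane genes. The KEGG term Neuroactive ligand-receptor interaction had 11 of 68 measured genes (16.2%) higher and none lower, against 2.55% and 1.23% of all measured genes. Its members had a median log2 fold of 0.03 and a median of 123 reads. Of all genes with 100 to 299 reads, 4.55% were higher. Besides ADRA2B, VIPR1, a receptor for vasoactive intestinal peptide, had 38 reads in vector, 673 in HEB, 1003 in E2A and 1621 in E2-2, a fold of 16.7 (12.04 to 23.8), and an antisense gene overlaps it. The nucleotide receptor gene P2RY2 had 359 reads in vector, 1922 in HEB, 2047 in E2A and 1524 in E2-2, a fold of 5.05 (4.51 to 5.66), and was the most deeply counted of the 11. ADRA2C, a second alpha-2 adrenergic receptor gene, had 20, 138, 273 and 115 reads, a fold of 6.50 (4.05 to 11.0). KISS1R, the kisspeptin receptor gene, had 17 reads in vector, 89 in HEB, 30 in E2A and 29 in E2-2, and so stood highest in HEB. The remaining 6 were P2RY14, GABRR2, LPAR3, ADORA3, SSTR2 and CHRNB4.

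Several of the higher matrix genes were nearly absent from vector. FBN3, a fibrillin, had 0 reads in vector, 43 in HEB, 18 in E2A and 312 in E2-2, a fold of 13.5 at the floor of 3 reads. CRISPLD2, a secreted glycoprotein, had 19 reads in vector, 268 in HEB, 583 in E2A and 711 in E2-2, a fold of 13.3 (8.35 to 22.4). SOST, the Wnt antagonist sclerostin, had 0, 33, 35 and 96, and TIMP3, a metalloprotease inhibitor, had 3, 46, 82 and 297. Among 23 integrin and adhesion genes the tetraspanin gene CD82 had 46 reads in vector, 227 in HEB, 579 in E2A and 1223 in E2-2, a fold of 4.65 (3.38 to 6.53). ITGB2, the beta chain of leukocyte integrins, had 146, 381, 426 and 565, a fold of 2.46 (2.03 to 3.00). The integrin genes with the most reads did not differ to this extent: ITGB1 had 9928 reads in vector and 10211 in HEB, and ITGA4 had 5647 and 5375.

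Chemotaxis genes were called mostly, but not only, higher. In the GO term chemotaxis, 25 of 492 measured genes (5.08%) were higher and 4 (0.813%) lower, against 2.55% and 1.23% of all measured genes. Of 42 measured genes in the smaller term neutrophil chemotaxis, which had 1 of the 8 largest shares of higher genes and is described for that reason, 8 were higher and none lower: S100A8, CCL4L2, FCER1G, CCL3L3, IL1B, DAPK2, ITGB2 and SYK. CCL4L2, a copy of the gene for the chemokine MIP-1 beta, had 43 reads in vector, 474 in HEB, 205 in E2A and 930 in E2-2, a fold of 10.4 (7.60 to 14.6). CCL3L3, a copy of the MIP-1 alpha gene, had 230, 673, 267 and 456 reads, a fold of 2.76 (2.37 to 3.22). Both belong to copy families whose reads can be shared among copies. Other chemokines were not called and several had fewer reads in HEB, among them CXCL8 (493 reads in vector and 344 in HEB) and CCL5 (1591 and 1376). Of 11 measured genes in the list of chemokines and their receptors, 7 had a log2 fold above 0, and the median was 0.44. The chemokine receptor gene CCR4 was among the 4 lower genes of the chemotaxis term.

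CCND3 was the called member of a list of 38 cell cycle progression genes. CCND3 encodes cyclin D3, which activates CDK4 and CDK6 in early G1, and had 229 reads in vector, 1708 in HEB, 4418 in E2A and 5874 in E2-2, a fold of 7.03 (6.12 to 8.11). The level in HEB was 2.42-fold (2.29 to 2.56) below that in E2A and 3.75-fold (3.56 to 3.96) below that in E2-2. That 1 call among 38 genes is close to the 2.55% of all measured genes, and the median log2 fold of the list was 0.17. In the KEGG term Cell cycle, 2 of 111 measured genes were higher, CCND3 and the cyclin A1 gene CCNA1 (11 reads in vector and 39 in HEB). CCND2 had 1775 reads in vector and 2484 in HEB, CDK6 11306 and 13062, and the proliferation marker gene MKI67 10304 and 15153. Among 30 inhibitors and p53 targets, BTG2, an antiproliferative gene, was higher (22 and 51 reads) and CDKN1C, which encodes the CDK inhibitor p57, was lower with 106 reads in vector, 51 in HEB, 153 in E2A and 96 in E2-2. CDKN1A, the p21 gene, had 363 and 597 reads in vector and HEB and was not called. MXD3, a MYC network repressor, was the called member of 32 MYC network and ribosome biogenesis genes, with 244 and 545 reads.

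Signalling feedback genes were called singly. SOCS1, a brake on JAK kinases, had 4 reads in vector, 31 in HEB, 34 in E2A and 107 in E2-2, a fold of 7.31 (2.58 to 28.5). EGR3, an immediate early factor, had 4, 35, 6 and 21 reads, a fold of 8.25 (2.95 to 32.0), while EGR1 had 94 in vector and 156 in HEB. In the KEGG term T cell receptor signaling pathway, 4 of 73 genes (5.48%) were lower and 1 (1.37%) higher, against 1.23% and 2.55% of all measured genes. The 4 were CD8A, CD3D, the kinase gene MAPK11 (276 reads in vector and 131 in HEB) and PIK3R5 (258 and 116), a regulatory subunit of phosphoinositide 3-kinase gamma.

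Lipid synthesis and endoplasmic reticulum genes differed by small steps mostly in 1 direction. Of 28 cholesterol and fatty acid synthesis genes, 26 had a log2 fold above 0, against 52.5% of all measured genes, and the median was 0.34. The only call was ELOVL6, a fatty acid elongase gene, with 197 reads in vector, 1120 in HEB, 1463 in E2A and 1191 in E2-2, a fold of 5.36 (4.60 to 6.27). The others stayed under 2-fold, for example, chosen after their values were seen, HMGCS1 at 1869 reads in vector and 2776 in HEB, LSS at 1859 and 2868, and FASN at 13069 and 17416. The summed level of the list was 4884 CPM in vector and 5980.45 in HEB, against 5192 in E2A and 4971 in E2-2. Of 28 amino acid and endoplasmic reticulum stress genes, 26 were above 0 with a median of 0.23 and no call, and their summed level was 3993 CPM in vector, 4683 in HEB, 4150.04 in E2A and 3637 in E2-2. With 1 library per group, shifts of this size cannot be set against the spread between cultures.

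Interferon-stimulated genes lay more often below vector than above it. Of 36 measured members, 2 (5.56%) were higher (IRF7 and IFITM2) and 1 (2.78%) lower (OAS2), against 2.55% and 1.23% of all measured genes. In this list 12 members had a log2 fold above 0, and the median was -0.09. IFIT1, an RNA-binding antiviral gene chosen with the next one after the values were seen, had 521 reads in vector, 329 in HEB, 405 in E2A and 345 in E2-2, and BST2, which encodes tetherin, had 187, 122, 155 and 125. The summed level of the list was 667 CPM in vector, 615 in HEB, 753 in E2A and 1120 in E2-2. None of 16 measured MHC class I genes was called, and the class II genes HLA-DRA and HLA-DPA1 had at most 1 read in either library. The 15 mitochondrially encoded genes had a median log2 fold of -0.17 and 17 housekeeping genes one of 0.03, with no call in either list.

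**Figure D4:**
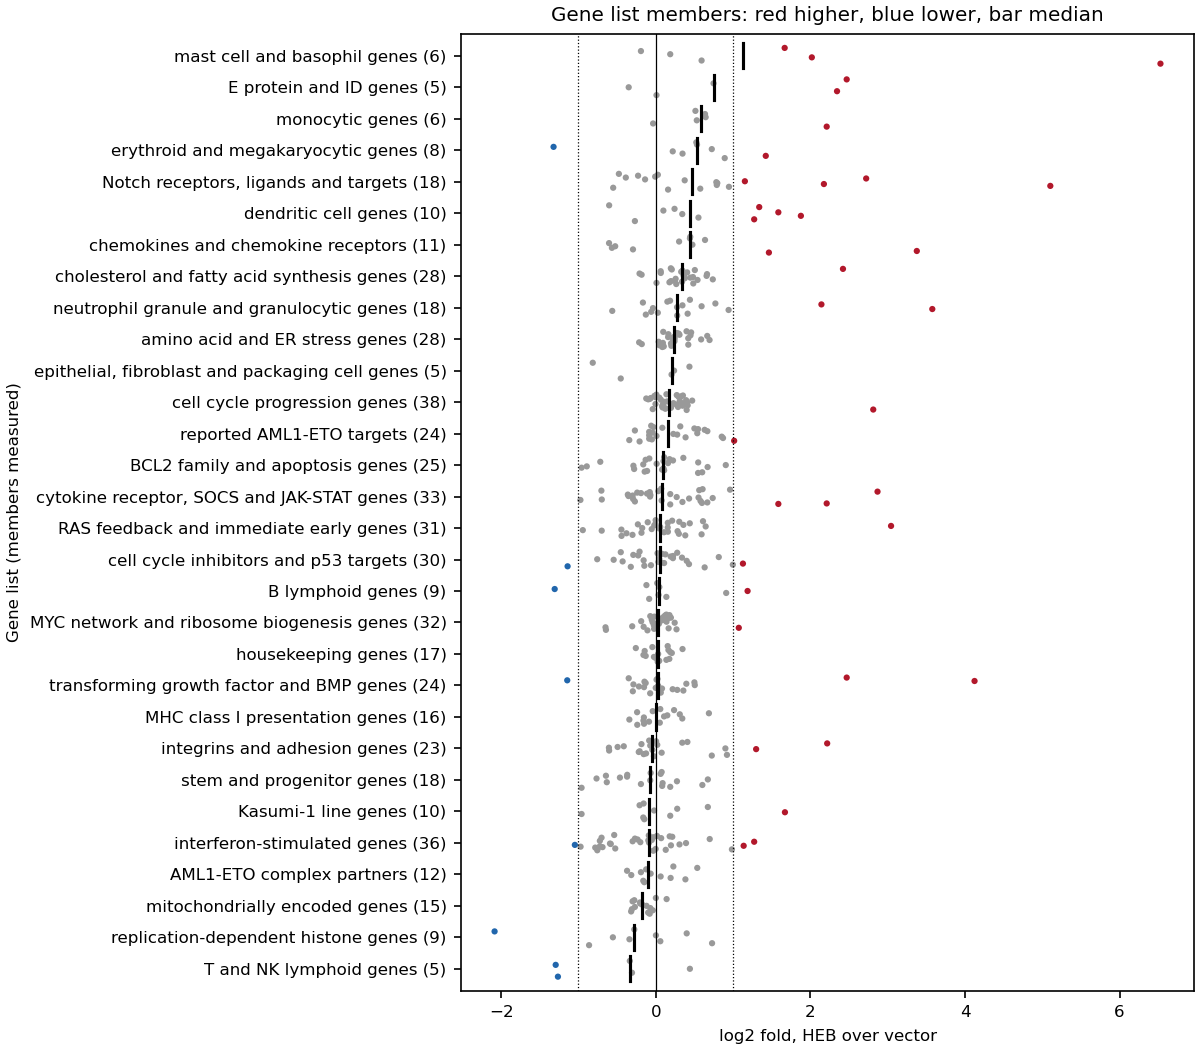
Each point is the log2 fold of a measured member of a gene list, by list, for the 30 lists with at least 5 measured members; red points were called higher, blue lower, and the black bar is the median. The Notch list has a median of 0.47 with 4 red points to its right and others below 0, while the cholesterol list has a median of 0.34, 1 red point and 26 of 28 points right of 0.

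By the share of lower genes, the GO term retinoid metabolic process came first among terms with at least 20 measured genes. Of its 29 genes, 4 (13.8%) were lower and 2 (6.90%) higher, against 1.23% and 2.55% of all measured genes. The 4 were DHRS9 and SCPEP1, given above, CYP1A1, a cytochrome P450 gene (35 reads in vector and 11 in HEB), and STRA6, the retinol transporter gene (35 and 13). In KEGG terms, Systemic lupus erythematosus came first with 4 of 32 lower: the complement genes C1S (50 and 24) and C3 (29 and 14) and the histone genes HIST2H2AA3 (28 and 7) and HIST2H2AA4 (29 and 12), which are near-identical copies. Each of these 6 newly named genes had at most 50 reads in vector.

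Some higher genes were neighbours in the genome. There were 21 stretches in which at least 3 higher genes started within 1 Mb, and 4 such stretches of lower genes. A stretch begins and ends at a called gene, so its share of called genes is raised by how it was drawn. On chromosome 17 from 74213514 to 74546143 (GRCh38), all 5 measured genes were higher: TTYH2, KIF19, GPR142, GPRC5C and CD300C. KIF19, a kinesin of cilia, had 1 read in vector, 40 in HEB, 86 in E2A and 127 in E2-2. GPR142, a G protein-coupled receptor gene, had 7, 71, 235 and 91 reads, and CD300C, a leukocyte surface receptor gene, had 4, 62, 245 and 192. GPRC5C had 13, 28, 37 and 35 reads, and its fold of 2.03 (1.02 to 4.27) only just met the rule. The measured genes on either side did not share this direction. RPL38, a ribosomal protein gene just before TTYH2, had 2971 reads in vector and 2444 in HEB. RAB37, a GTPase of secretory granules starting 457 kb after the start of TTYH2, was lower in HEB, with 1040 reads in vector, 505 in HEB, 1838 in E2A and 1027 in E2-2. Its level was 2.19-fold (1.96 to 2.44) lower than in vector, 3.41-fold (3.09 to 3.77) lower than in E2A and 2.22-fold (1.99 to 2.47) lower than in E2-2.

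On chromosome 7 from 142300924 to 142871094, 9 of 13 measured genes were higher, and 8 of them were variable segments of the T cell receptor beta locus. TRBV6-5 had 4 reads in vector, 81 in HEB, 101 in E2A and 88 in E2-2, a fold of 19.1 (7.17 to 71.7). TRBV2 had 0, 40, 125 and 121 reads, a fold of 12.6 at the floor of 3 reads, with an interval from 9.76 upward. TRBV9 had 43, 153, 140 and 87, a fold of 3.35 (2.38 to 4.82). Segments of this locus resemble one another, so reads may be shared among them. The constant segment TRBC1 did not follow, with 26 reads in vector, 24 in HEB, 35 in E2A and 38 in E2-2, nor was TRBV27 called, with 21 and 34 in vector and HEB. The ninth gene was EPHB6, an ephrin receptor gene at the end of the stretch, with 173, 383, 489 and 476 reads.

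On chromosome 3 from 31657890 to 32168713, all 3 measured genes were higher. GPD1L, a glycerol-3-phosphate dehydrogenase gene, had 1269 reads in vector, 4259 in HEB, 7286 in E2A and 5224 in E2-2, a fold of 3.16 (2.97 to 3.37), and OSBPL10, an oxysterol-binding protein gene, had 25, 165, 207 and 268, a fold of 6.22 (4.07 to 9.89). The third gene, AC094019.4, had 14 reads in vector and 49 in HEB and lies within the span of GPD1L. Without strand, its reads cannot be told from those of GPD1L. The adjoining CMTM8 had 86 reads in vector and 108 in HEB. By chromosome, the share of higher genes ran from 1.56% on chromosome 8 to 4.80% on chromosome 22 (17 of 354), and that of lower genes from 0.287% on chromosome 20 to 2.58% on chromosome 15 (12 of 465), leaving out the mitochondrial genome, which had none. The median log2 fold of each nuclear chromosome lay between -0.01 and 0.04.

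**Figure D5:**
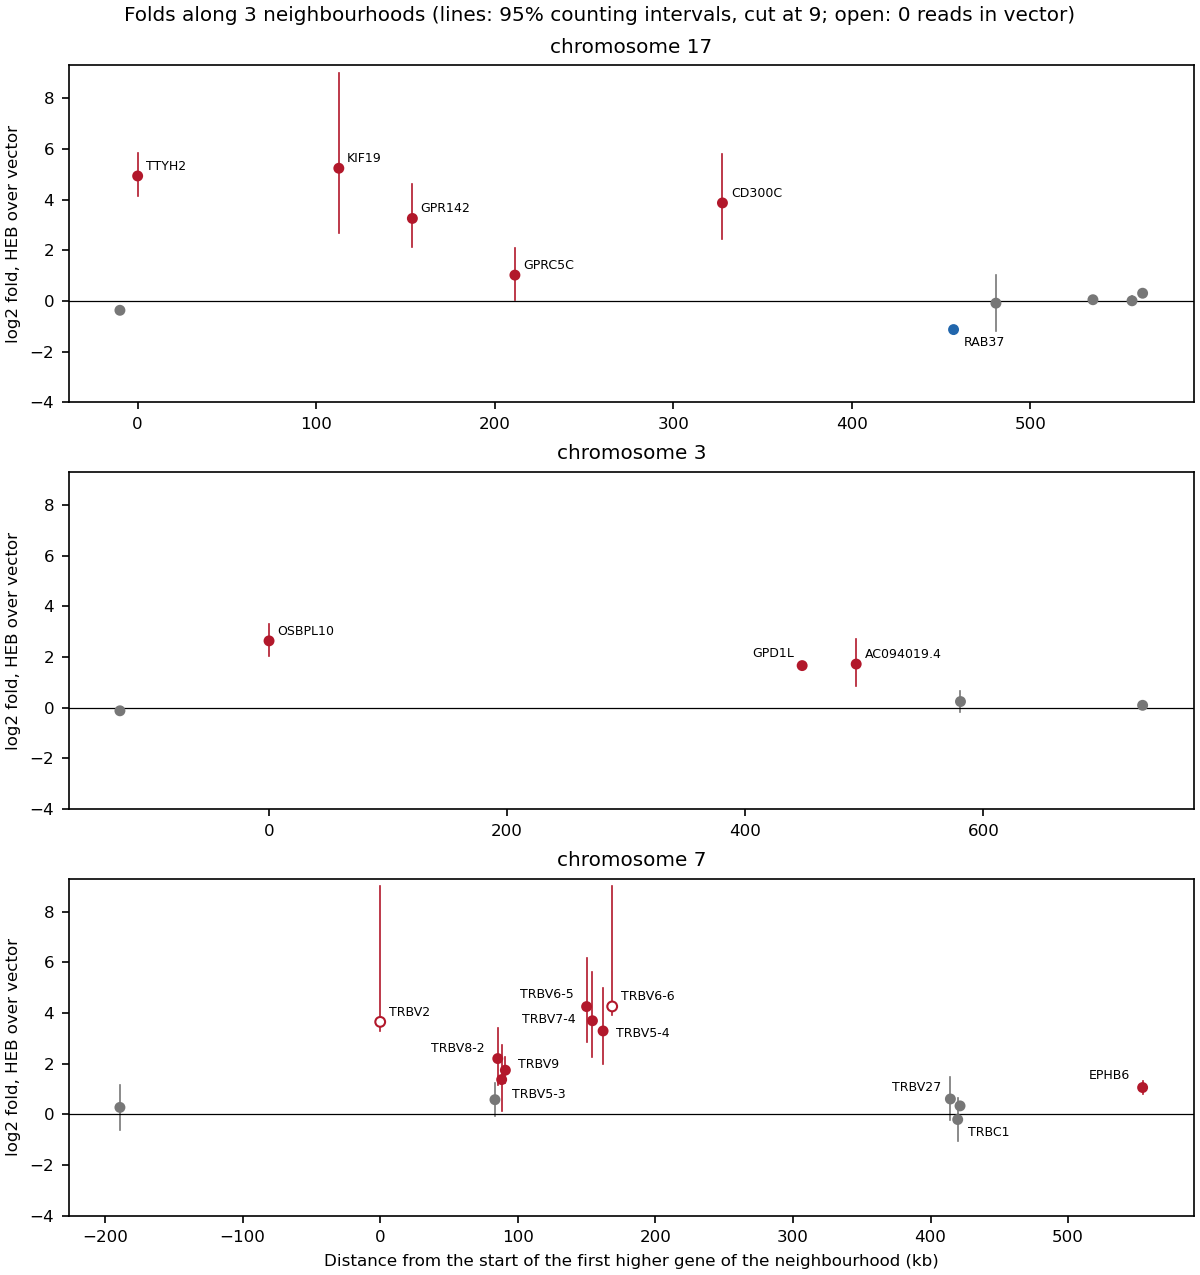
Log2 folds of measured genes by distance in kb from the start of the first higher gene, in 3 neighbourhoods with 300 kb on either side; lines are 95% counting intervals, red points were called higher, blue lower, and open points had 0 reads in vector. On chromosome 17 the 5 higher genes from TTYH2 to CD300C are followed by RAB37 below 0, and on chromosome 7 the TRBV segments lie above 0 while TRBC1 lies beside it.

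A small group set HEB apart from each of the other 3 libraries. By the same rule applied to HEB against E2A and against E2-2 directly, 6 genes were higher in HEB than in vector, E2A and E2-2, and 9 were lower; they were picked after the values were seen, and the HEB library enters each comparison. Besides TCF12, the 6 were CST7, ICAM5, KISS1R, KITLG and SOWAHD. SOWAHD only just met the rule against vector, with 16 reads in vector and 34 in HEB. CST7, which encodes the leukocyte protease inhibitor cystatin F, had 5 reads in vector, 44 in HEB, 8 in E2A and 18 in E2-2. ICAM5, an adhesion molecule gene, had 62, 156, 60 and 62, and KITLG, the gene of the KIT ligand, had 9, 23, 7 and 8. For ICAM5 and KITLG the other 3 libraries lay close together, below HEB. The lower genes were RAB37, SH3TC1, CDKN1C, ANXA8, C5orf56 and 4 known by clone names. SH3TC1 had 72 reads in vector, 37 in HEB, 406 in E2A and 479 in E2-2, so that it was below vector in HEB and above vector in both others, with HEB 10.3-fold (7.33 to 14.8) below E2A and 14.1-fold (10.1 to 20.3) below E2-2. CDKN1C was 2.81-fold (2.03 to 3.94) lower in HEB than in E2A and 2.05-fold (1.45 to 2.94) lower than in E2-2.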

How the data were processed

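RNA-seq libraries of sorted Kasumi-1 cells, 1 each for vector, HEB, E2A and E2-2, were compared as read counts. The authors deposited 1 table with a whole-number count per Ensembl gene and library, and with FPKM values beside it, per the file headers. TRIzol extraction, a TruSeq RNA kit and HiSeq sequencing were used, per the labels' protocols. TopHat2 2.0.9 and HTSeq 0.9.1 are named, among other tools, by the submitters' processing notes, with the builds hg38 and hg19 and no roles. Positions in the table overlapped the RefSeq GRCh38 gene for 11678 of 11681 measured genes matched by symbol, so positions are given as GRCh38. The annotation and the strand setting of the counting are not stated in these sources, so overlapping genes, antisense genes and near-identical copies are uncertain. The ChIP-seq libraries were not analysed here, and some single genes are not reported.

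Counts were scaled with edgeR 4.0.16 (TMM over the 4 RNA libraries) in R 4.3.3, and CPM uses the scaled library sizes. Each fold has a 95% exact conditional binomial (Clopper-Pearson) interval, computed with scipy 1.17.1 in Python 3.11.15; it covers counting error only, since it is not known whether reads are separate molecules, and no group had a repeat. A gene needed at least 30 reads in both libraries together, a fold of at least 2 and an interval that excludes 1. A count of 0 was set to 3 for the fold. The calling step was tested on simulated data. Genes named are the E protein and ID genes, the 15 called genes at each end, ordered by the interval bound closest to 1 (clone names passed over), up to 4 called members of each of 31 lists or of an annotated term, members of genome neighbourhoods, and genes described as picked after their values were seen; further members stand beside them as uncalled examples. Members and lists were chosen with earlier results of these data known. KEGG and GO terms are those of the table. Alternatives were DESeq2 1.42.0 size factors, summed counts, TMM over 2 libraries, FPKM, other read minimums and fold thresholds, and protein-coding genes alone. DESeq2 served for size factors only.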

Additional observations from a re-analysis of the deposited data

How the results depend on the processing

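The number of higher genes was 349 and of lower genes 169. Scaling moved these little: DESeq2 size factors gave 353 and 168, summed counts and the authors' FPKM 346 and 173, and TMM over HEB and vector alone 342 and 174, with the median of all genes shifted by at most 0.015 on the log2 scale. Among the named and listed genes, TRH alone lost its call under these 4 scalings. Thresholds moved the counts more. A minimum of 100 reads left 183 higher and 55 lower genes, and a minimum of 10 gave 530 and 268. A fold of 1.5 gave 657 and 511, and asking the interval itself to lie beyond 2-fold left 180 and 12. The share of calls that were higher was 67.4% in the main analysis, 56.3% at a fold of 1.5, 76.9% with 100 reads and 93.8% with the interval beyond 2-fold. Among protein-coding genes 272 were higher and 89 lower. The TCF12 fold of 5.08 ran from 5.03 to 5.10 over the scalings. With windows of 500 kb, the stretches with at least 3 higher genes fell from 21 to 12 and those of lower genes from 4 to 1. No called gene changed direction, while the median of all genes, 0.01 in the main analysis, was -0.0015 with TMM over HEB and vector alone. With 1 library per group, no replicate could be left out, and counting intervals understate the error between cultures. No paired analysis was possible because each group has 1 library. A median depth of 69 reads limits the lower genes, most of which lie near the threshold.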
